A study of Mus musculus with 26 samples.

Results

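Gm15446 (ENSMUSG00000090015), Gm64463 (ENSMUSG00000121395) and ENSMUSG00000095041 are 3 of the 57010 genes counted in this bulk RNA-seq study of mouse mesenteric arteries, the small vessels that feed the intestine. They were chosen by their difference between the Panx1 knockout and its wild-type controls: each had an adjusted p under 0.05 there in edgeR. The knockout difference is therefore a description: the p-values printed for it are the ones that made the choice or repeat it on the same libraries, and nothing is supported with them. Other comparisons of the 3 genes were tested. In the knockout libraries Gm15446 was nearly absent, and Gm64463 and ENSMUSG00000095041 were at about double their level elsewhere. In the arteries of mice with point mutations of the pannexin 1 protein, none of the 3 genes passed the test. Of all genes tested against the labelled controls in edgeR, 15.0% passed in Y198F, 0% in S205A and 0% in Y308F.

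All mice were male and 8 weeks old. The groups were WT (n = 3), global Panx1 KO (n = 3), and for each of 3 point mutants a mutant and its control: Y198F+/+ (n = 3) and Y198F-/- (n = 3), S205A+/+ (n = 4) and S205A-/- (n = 4), Y308F+/+ (n = 3) and Y308F-/- (n = 3). The design text speaks of 3 vascular trees for each genotype, whereas the S205A line has 4 libraries in each group, and whether a library is 1 mouse is not stated. Each -/- group is called a control here because its titles do so. Controls were littermates or wild type, and the labels give neither the strain nor how the knockout was made. Pannexin 1, the product of Panx1, forms a membrane channel that releases ATP from arterial cells, and the mutated tyrosines and serine are sites of its phosphorylation.

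Gm15446 encodes a protein with C2H2 zinc fingers, short folds in which pairs of cysteines and histidines hold a zinc ion and which usually bind DNA. Mouse genes of this class lie in clusters of close copies, many act as repressors, and their number and sequence differ between mouse strains. Gm64463 is annotated as a long noncoding RNA, a transcript with no known protein. It overlaps and resembles Tmem181, a family of genes and pseudogenes for a membrane protein. ENSMUSG00000095041 carries no name in the deposited tables, which list it as protein coding, and it is absent from the GENCODE annotation used here. Its position, length and sequence are therefore not given.

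On GRCm39, Gm15446 lies on the plus strand of chromosome 5 from 110071266 to 110093477. Its main transcript has 4 exons and 4092 bases, of which 1659 are coding. The 553 residues encoded hold 16 C2H2 motifs. The first of them is shown because it is what places the gene in its family. It lies at chr5:110090062-110090124, and capitals mark the codons of its 2 cysteines and 2 histidines.
Gm15446, first zinc finger: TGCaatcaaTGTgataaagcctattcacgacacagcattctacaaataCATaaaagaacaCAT
The neighbouring zinc finger gene Zfp932 is a near copy: 3345 of 3447 aligned transcript bases (97.0%) were identical. The 60 bases in which they differ most, chr5:110090052-110090111 in Gm15446, show how reads can still be told apart there. Capitals mark the 18 differing bases.
Gm15446: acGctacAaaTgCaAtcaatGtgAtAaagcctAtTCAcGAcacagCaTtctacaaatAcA
Zfp932: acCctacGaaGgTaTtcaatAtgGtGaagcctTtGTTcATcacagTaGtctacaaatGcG
Along the main transcript of Gm15446, 9.31% of its 3943 stretches of 150 bases, the length of a read, also occurred in another gene.

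Gm64463 lies on the minus strand of chromosome 17 from 6705923 to 6757893, and its main transcript has 17 exons and 1782 bases. Over 1790 aligned bases it was 98.5% identical to Tmem181a, and 79.2% of its 1633 stretches of 150 bases also occurred in another gene. The pseudogene Tmem181b-ps overlaps it on the same strand over 1528 exon bases. The window that differs most from Tmem181a, chr17:6716870-6716929 read on the minus strand, holds only 7 differing bases, in capitals.
Gm64463: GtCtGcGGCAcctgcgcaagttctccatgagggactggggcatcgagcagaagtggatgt
Tmem181a: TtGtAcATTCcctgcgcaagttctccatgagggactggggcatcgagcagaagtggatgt
Counts of Gm64463 are thus less certain than those of Gm15446, because the sources used here do not give how reads that match several places, or the strand of reads, were treated. The same doubt cannot be sized for ENSMUSG00000095041.

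The 26 libraries held 14895969 to 23617902 counts each. The name numbers of 9 libraries begin with 22: all 3 Y198F, 3 of the 4 S205A controls and 3 of the 4 S205A mutants. Only the S205A line holds libraries of both kinds, and there 834 of 18918 genes (4.41%) passed between them in edgeR, or 82 without S205A control 4. Only S205A control 4 and S205A 1 lie outside the series there, so leaving out either sets 6 libraries against 1, which is assumed to vary like the others. Genotype and series cannot be told apart between Y198F and its labelled controls. Panx1 itself measured 0.582 to 1.36 CPM (counts scaled to 1000000 per library) in the knockout and 3.38 to 4.96 CPM in WT. In the other 20 libraries it ranged from 0.830 CPM, in S205A control 1, to 5.32 CPM. The 5 smooth muscle markers summed to 18355 to 38166 CPM per library, and all 11 cell type marker lists overlapped between knockout and WT. The erythroid list had the largest median log2 fold change (-2.70, 3 of 3 markers tested), with sums of 11.0 to 21.6 CPM in the knockout and 1.11 to 351 CPM in WT. The adipocyte list came next (-1.58, 4 of 4 markers tested), with 44.0 to 228 CPM in the knockout and 122 to 925 CPM in WT. Their part in the results was not tested, and in whole arteries fewer cells of a type and less RNA per cell cannot be told apart.

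In the knockout libraries Gm15446 measured 0.900, 0.472 and 1.01 CPM, from 17, 10 and 20 counts. WT libraries held 14.5, 6.99 and 8.48 CPM, from 280, 126 and 165 counts. The groups did not overlap, and the knockout mean of 0.793 CPM ± 0.283 (SD, n = 3) lay 12.4-fold below WT in the edgeR fit, a log2 fold change of -3.63. Gm64463 measured 37.3, 33.9 and 36.5 CPM in the knockout against 15.3, 18.6 and 19.2 CPM in WT. Every knockout library was above every WT library, with a log2 fold change of 1.04. ENSMUSG00000095041 measured 365, 363 and 338 CPM in the knockout against 157, 131 and 171 CPM in WT, again without overlap, with a log2 fold change of 1.24. The means were 355 CPM ± 15.0 and 153 CPM ± 20.3 (SD, n = 3 each).

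These values put the genes just inside the threshold that chose them. Adjusted p was 0.0302 for Gm15446, 0.0496 for Gm64463 and 0.0275 for ENSMUSG00000095041, while Rgs1, the first gene outside, had 0.0614. In all 5 of 16193 genes (0.0309%) passed, and the others were the chromosome 14 neighbours Plac9 (log2 fold change -1.96) and Tmem254 (-1.84). DESeq2 called 153 genes in this comparison, and edgeR without a filter on low counts called 243. The authors' deposited table calls 20 genes. Leaving out single libraries moved the adjusted p of the 3 genes across the threshold. Gm15446 and ENSMUSG00000095041 passed only without WT 2 and without WT 3, and missed it without WT 1 or any single knockout library. Gm64463 missed it in all 6 cases (adjusted p 0.0599 to 0.420, edgeR). Their log2 fold changes moved little: -3.84 to -3.27 for Gm15446, 0.94 to 1.10 for Gm64463 and 1.14 to 1.33 for ENSMUSG00000095041 over all 12 alternatives. In the authors' deposited table for this comparison, Gm15446 had a log2 fold change of -3.65 and an adjusted p of 1.61e-20, Gm64463 1.03 and 0.0510, and ENSMUSG00000095041 1.23 and 2.83e-05.

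**Figure D1:**
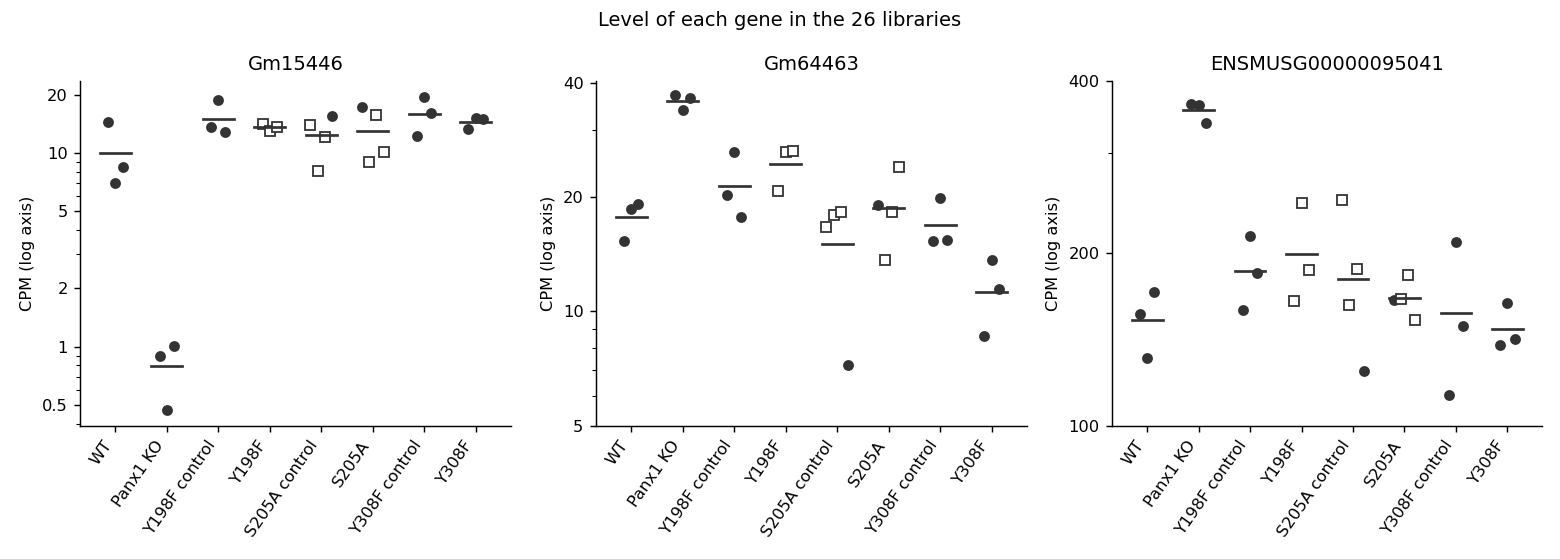
Level of the 3 genes (CPM, log axis) in each of the 26 libraries by group; bars are group means, filled circles are libraries outside the series whose numbers begin with 22, and open squares are libraries inside it. The Panx1 KO libraries lie at 0.472 to 1.01 CPM for Gm15446, 33.9 to 37.3 CPM for Gm64463 and 338 to 365 CPM for ENSMUSG00000095041, outside the range of the other 23 libraries in each panel.

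The 20 libraries of the point mutant lines, which had no part in choosing the genes, show what range each gene takes outside the knockout. Gm15446 ran from 8.12 to 19.5 CPM there, and averaged 13.9 CPM ± 2.90 (SD, n = 20), of which the knockout mean was 5.68%. Gm64463 ran from 7.22 to 26.4 CPM (mean 17.9 ± 5.44), and ENSMUSG00000095041 from 113 to 248 CPM (mean 173 ± 35.6). The knockout means were 2.01 and 2.05 times these. WT was the lowest of the 7 other groups for Gm15446, at 9.98 CPM ± 3.96, but its libraries overlapped those of the next group.

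With WT included, the 3 knockout libraries lay outside the range of all 23 others for each of the 3 genes. Of the 18715 genes that passed the filter on low counts, 73 (0.390%) did so. Since knockout libraries were used in the choice, nothing more is read from that count.

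Group means followed different orders for the 3 genes. For Gm15446 the order rose from the knockout through WT, S205A control (12.4 CPM ± 3.18), S205A (13.0 ± 4.05), Y198F (13.6 ± 0.570), Y308F (14.4 ± 1.05) and Y198F control (15.1 ± 3.26) to Y308F control (15.9 ± 3.66). Each pair of neighbours in this order overlapped, apart from the knockout and WT. For Gm64463 it rose from Y308F (11.3 ± 2.55) through S205A control (15.0 ± 5.26), Y308F control (16.9 ± 2.61), WT (17.7 ± 2.10), S205A (18.8 ± 4.22), Y198F control (21.4 ± 4.38) and Y198F (24.5 ± 3.29) to the knockout (35.9 ± 1.78). The gap between Y198F and the knockout was the only one without overlap. For ENSMUSG00000095041 it rose from Y308F (148 ± 13.7) through WT, Y308F control (157 ± 48.8), S205A (167 ± 12.5), S205A control (181 ± 51.7), Y198F control (186 ± 27.7) and Y198F (199 ± 41.2) to the knockout, where again only the last step was free of overlap.

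Per kilobase of exon, WT held 1.52 CPM ± 0.605 for Gm15446 and 1.65 CPM ± 0.196 for Gm64463, the 2 genes with a known length. The lengths used join the exons of all annotated transcripts, 6.548 kb for Gm15446 and 10.72 kb for Gm64463. The main transcripts are shorter, at 4092 and 1782 bases, so how alike the 2 genes are depends on the length used. In the knockout the same quantity was 0.121 ± 0.0432 for Gm15446 and 3.35 ± 0.166 for Gm64463.

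The point mutants ask whether changing single phosphorylation sites alters the arterial transcriptome as loss of the channel might. Gm15446 measured 14.1, 13.0 and 13.6 CPM in Y198F and 13.6, 18.8 and 12.8 CPM in the Y198F controls. In S205A it measured 17.2, 9.03, 15.7 and 10.1 CPM, against 14.0, 8.12, 12.2 and 15.5 CPM in the controls. In Y308F it measured 13.2, 15.1 and 15.0 CPM, against 12.2, 19.5 and 16.1 CPM. Mutants and controls overlapped in each line. The log2 fold changes were -0.15 for Y198F (95% interval -0.55 to 0.24), 0.07 for S205A (-0.53 to 0.66) and -0.13 for Y308F (-0.56 to 0.30). The adjusted p-values were 0.624, 1 and 0.972 (edgeR), so no change was called. A joint fit of all 8 groups with the library series as a term turned the Y198F value to 0.35.

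For ENSMUSG00000095041 the spread differed between groups of the point mutant lines, with a coefficient of variation from 7.48% in S205A to 31.0% in the Y308F controls. It measured 165, 245 and 187 CPM in Y198F, against 159, 214 and 185 CPM in the controls. In S205A it measured 165, 166, 183 and 153 CPM, against 248, 162, 188 and 125 CPM. In Y308F it measured 138, 163 and 141 CPM, against 113, 210 and 149 CPM. Again each mutant overlapped its control. Its log2 fold changes were 0.09 (95% interval -0.25 to 0.44), -0.11 (-0.54 to 0.31) and -0.08 (-0.55 to 0.40), with adjusted p-values of 0.757, 1 and 0.987 in edgeR. The joint fit with the series term turned its Y198F value to -0.23.

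Gm64463 moved most among the mutants, without passing the test. In Y308F it measured 8.61, 13.7 and 11.4 CPM, all below the 15.3, 19.9 and 15.4 CPM of the controls. The log2 fold change was -0.57 (95% interval -1.03 to -0.11, adjusted p = 0.940 in edgeR), which ranked 234 of 16037 genes by p. An exact two-sided permutation test gave p = 0.1, the smallest that 3 against 3 libraries allow. This is opposite in sign to the knockout. In S205A it measured 19.1, 13.7, 18.2 and 23.99 CPM, against 16.6, 17.9, 18.3 and 7.22 CPM in the controls. The log2 fold change of 0.32 (-0.32 to 0.96, adjusted p = 1 in edgeR) rested largely on the low S205A control 4: without that library it was 0.09. In Y198F it measured 20.7, 26.3 and 26.4 CPM, against 20.2, 26.3 and 17.8 CPM in the labelled controls, a log2 fold change of 0.19 (-0.18 to 0.55, adjusted p = 0.514 in edgeR). The joint fit with the series term turned this value to -0.34.

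The background of these comparisons differed greatly. Between Y198F and its labelled controls, 2411 of 16050 genes (15.0%) passed the threshold, and none of the 3 genes was among them. Without Y198F control 3 the count was 908, and without Y198F control 1 it was 1546. Between S205A and its controls 0 of 15709 genes (0%) passed in edgeR, 451 had an unadjusted p under 0.05, and DESeq2 called 38. The authors' deposited table calls 96 there, 3 for Y198F and 0 for Y308F. Between Y308F and its controls 0 of 16037 genes (0%) passed, 706 had an unadjusted p under 0.05, and DESeq2 called 0. On simulated data of the Y308F comparison, edgeR recovered 81% of genes changed 4-fold and 46% of those changed 2-fold. It also called 13 unchanged genes. In the S205A comparison these shares were 68% and 42%, with 9 unchanged genes called. Changes of 2-fold would thus often be missed.

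**Figure D2:**
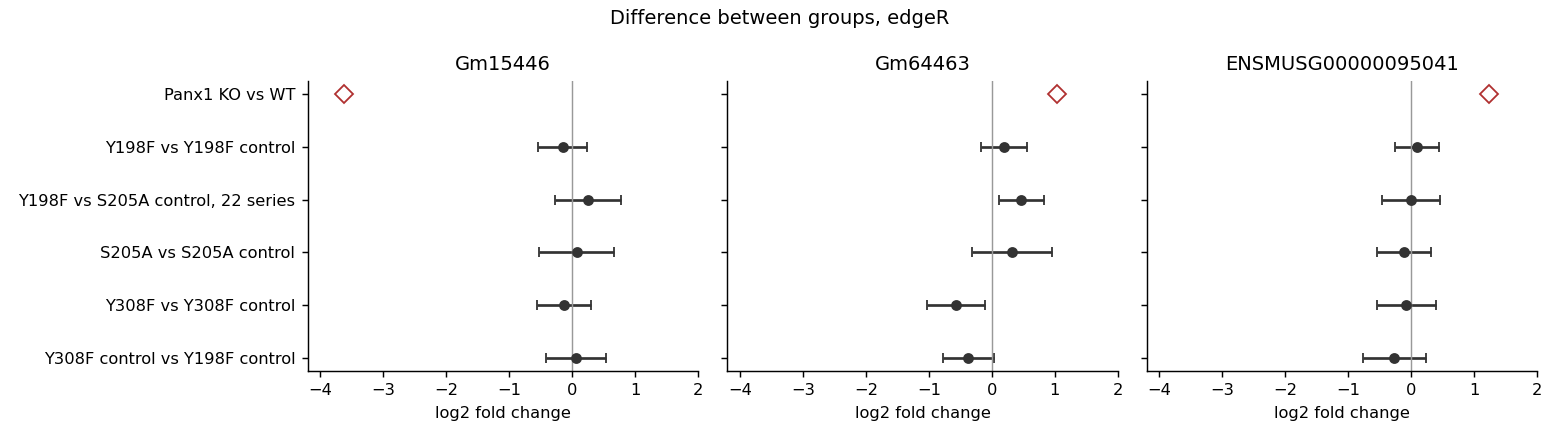
Log2 fold change of each gene by comparison in edgeR, with 95% intervals as bars; the open diamond is Panx1 KO against WT, which chose the genes and is drawn without an interval. All intervals for Gm15446 and ENSMUSG00000095041 span 0, and those for Gm64463 exclude 0 on opposite sides in Y308F (-0.57) and in Y198F against the S205A controls of its series (0.47).

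Y198F could also be compared with the 3 S205A controls of its own series, although these come from another line. Gm64463 measured 16.6, 17.9 and 18.3 CPM in those controls, below all 3 Y198F libraries. The log2 fold change was 0.47 (95% interval 0.12 to 0.82), with an adjusted p of 1 in edgeR, rank 130 of 15879 genes by p, and an exact permutation p of 0.1, again the smallest possible. Gm15446 and ENSMUSG00000095041 differed by 0.25 (-0.27 to 0.77) and -0.00 (-0.47 to 0.46), both with an adjusted p of 1. Over 9 alternatives their values ran from 0.055 to 0.42 and from -0.18 to 0.18. Here 0 of 15879 genes (0%) passed in edgeR, 492 had an unadjusted p under 0.05, and DESeq2 called 34. On simulated data of this comparison edgeR recovered 71% of genes changed 4-fold and 16% of those changed 2-fold, and called 7 unchanged genes. Both sets of Y198F values share the mutant libraries, and line and genotype cannot be told apart in the second.

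The authors' deposited table for Y198F gives log2 fold changes of 0.12 for Gm15446, 0.70 for Gm64463 and 0.13 for ENSMUSG00000095041. Ratios of group means in the deposited normalized counts were 0.12, 0.70 and 0.13 on the log2 scale when the 4 S205A controls were the reference. With the labelled Y198F controls they were -0.16, 0.18 and 0.08. Over 12531 genes the authors' value lay a median of 0.00035 from the ratio to the S205A controls and 0.188 from the ratio to the labelled controls.

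The difference between mutants in Gm64463 was tested directly. The Y198F effect minus the Y308F effect was 0.75 on the log2 scale (SE 0.271, adjusted p = 0.114 in edgeR), while a fit of all 8 groups that also held a series term gave 0.24 (adjusted p = 1). The S205A effect minus the Y308F effect was 0.87 (SE 0.395, adjusted p = 1 in edgeR), and 0.98 (SE 0.310, adjusted p = 0.698) in the fit with the series term. The Y198F effect minus the S205A effect was -0.13 (SE 0.378, adjusted p = 0.911 in edgeR), and -0.74 (SE 0.410, adjusted p = 1) with that term. None of the 9 such differences over the 3 genes passed in either fit. Among all genes 979 of 17190 (5.70%) passed for Y198F minus Y308F, and 0 of 18715 in the fit with the series term, where 501 had an unadjusted p under 0.05. For Y198F minus S205A and S205A minus Y308F 0 passed (0%) in edgeR, with 2499 of 17479 and 615 of 17602 at an unadjusted p under 0.05.

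Mice that carry no mutation allow a look at colonies. Between the Y308F controls and the Y198F controls, both outside the series of 9 libraries, the log2 fold changes were 0.05 for Gm15446 (95% interval -0.43 to 0.53), -0.37 for Gm64463 (-0.78 to 0.03) and -0.27 for ENSMUSG00000095041 (-0.77 to 0.23). Adjusted p-values were 0.958, 0.683 and 0.769 in edgeR. Over 11 alternatives the values ran from -0.12 to 0.23, from -0.50 to -0.21 and from -0.53 to -0.085, in the same order. Of 15977 genes 0 (0%) passed, 1118 had an unadjusted p under 0.05, and DESeq2 called 15. Within the S205A line, the 6 libraries of the series differed from the other 2 by -0.51 (-1.08 to 0.07), 0.54 (-0.16 to 1.23) and 0.32 (-0.11 to 0.76), with adjusted p-values of 0.323, 0.395 and 0.417 in edgeR. Without S205A control 4, with 1 library left outside the series, the value of Gm64463 was -0.043. Over 11 alternatives the value of ENSMUSG00000095041 between the series ran from 0.013 to 0.67. Groups overlapped in 13 of the 15 comparisons of a gene that the design allowed between groups, the exceptions being those of Gm64463 in Y308F and in Y198F against the S205A controls of its series. Over all genes tested, groups did not overlap for 10.7% and 8.23% in these comparisons, for 34.2% between Y198F and its labelled controls, for 1.81% in S205A and for 14.2% between control colonies, so the share for the 3 genes is near the background.

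Zfp932, the near copy of Gm15446, did not share its pattern. It measured 26.6, 31.6 and 31.4 CPM in the knockout and 22.3, 22.3 and 25.8 CPM in WT, where Gm15446 was lower by 12.4-fold. The knockout libraries were all above WT, with a log2 fold change of 0.37, an unadjusted p of 0.0151 and an adjusted p of 0.365 in edgeR. Of the 16193 genes tested there, 11.2% had an unadjusted p under 0.05. The share of all genes whose knockout and WT libraries lie apart was not counted. The sum of both genes was 30.6 CPM ± 2.74 in the knockout and 33.4 CPM ± 3.83 in WT (SD, n = 3 each). These sums overlapped, with ranges of 27.5 to 32.4 and 29.3 to 36.8 CPM. Whether reads passed from one copy to the other was not tested. Across the 20 libraries of the mutant lines Zfp932 had group means from 22.2 CPM ± 4.09 in S205A to 27.7 CPM ± 1.64 in the Y198F controls.

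None of the Tmem181 copies of Gm64463 passed the threshold in the knockout comparison, and differences between the copies were not tested. Tmem181a measured 34.6, 30.5 and 36.6 CPM in the knockout and 32.7, 32.2 and 28.1 CPM in WT, with overlap. Tmem181b-ps, whose exons Gm64463 shares, measured 3.12, 3.82 and 3.12 CPM in the knockout and 1.65, 1.83 and 1.49 CPM in WT. Its log2 fold change of 1.04 was the same as that of Gm64463, with an adjusted p of 0.339 in edgeR. Tmem181c-ps measured 5.72, 3.45 and 5.98 CPM against 3.52, 3.22 and 1.85 CPM, with overlap. The sum of the 4 genes was 78.2 CPM ± 5.71 in the knockout and 53.2 CPM ± 2.59 in WT. Gm64463 itself, whose values made the choice, is part of this sum.

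**Figure D3:**
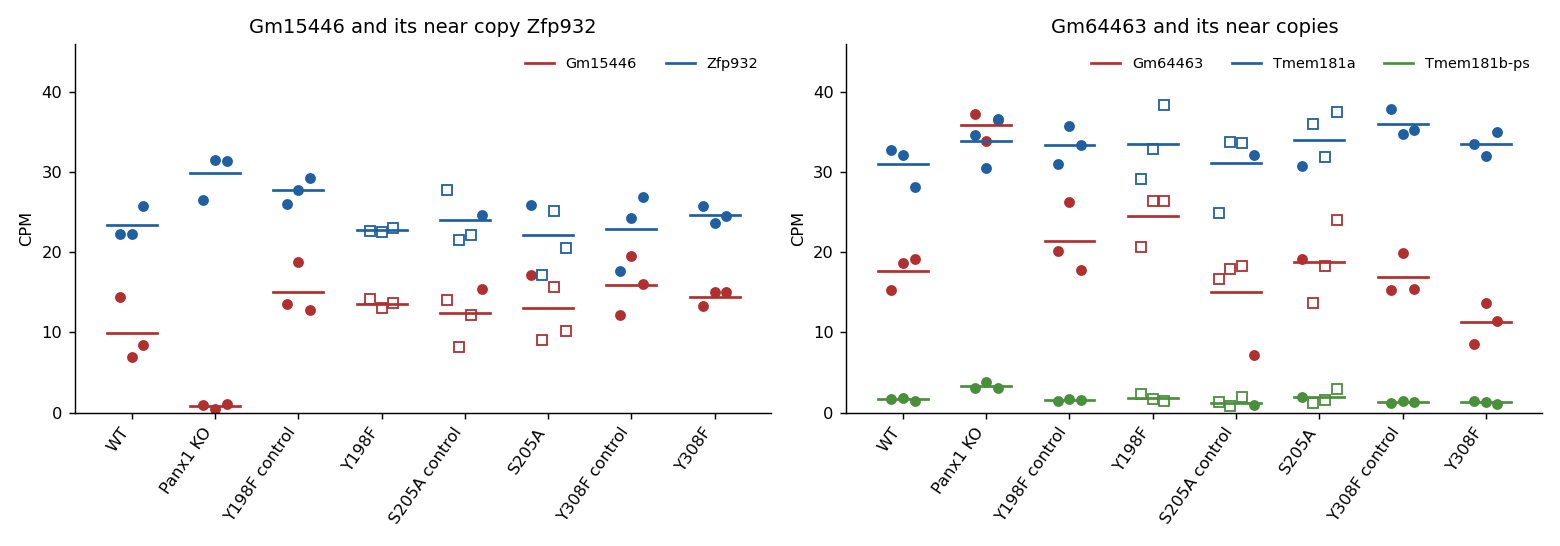
CPM by library for Gm15446 and Zfp932 (left) and for Gm64463, Tmem181a and Tmem181b-ps (right); bars are group means, and open squares are libraries of the series whose numbers begin with 22. Zfp932 and Tmem181a stayed between 17.2 and 31.6 CPM and between 24.9 and 38.4 CPM, including the knockout, while Gm15446 dropped to 0.793 CPM and Gm64463 reached 35.9 CPM there.

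The genes around each placed member were read as a list: all annotated genes within 500 kb. Around Gm15446 the annotation holds 49 genes, of which 37 were counted and 22 tested in the knockout comparison. None passed in either direction, and 3 had an unadjusted p under 0.05, as did 1817 (11.2%) of all genes tested. The median log2 fold change was 0.17, beside 0.0052 for all genes tested. Gm26808 and ENSMUSG00000121597, which overlap its exons over 184 and 89 bases, were not in the counts table. Gm26779, a noncoding gene 32.3 kb away and the nearest counted on the left, had a log2 fold change of 1.27 (adjusted p = 0.343, edgeR), opposite to Gm15446. On the right the nearest was 1010001B22Rik, a noncoding gene 41.7 kb away. It had 0 counts in each knockout library, which allows up to 0.159 CPM, and 1, 3 and 1 counts in WT, so no difference was detectable at this depth. In WT it measured 0.05 to 0.17 CPM, and in the mutant lines 0.05 to 1.34 CPM. At these low counts it was among the 73 genes with knockout libraries outside the range of the other 23.

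In the other comparisons 4 neighbours of Gm15446 passed the threshold between Y198F and its labelled controls, where 15.0% of all genes did. The cytokine receptor gene Crlf2 (log2 fold change 1.14) and Fbrsl1 (0.73) were higher, and 4930522L14Rik (-1.40) and the zinc finger gene Zfp605 (-1.003) were lower. Fbrsl1, 1 of 24 neighbours tested, also passed between the series within the S205A line (0.71, adjusted p = 0.00925 in edgeR), where 4.41% of all genes did. No neighbour passed in the S205A, Y308F, series-matched Y198F or control-colony comparisons. In those 4 comparisons at most 1 neighbour had an unadjusted p under 0.05.

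Around Gm64463 the annotation holds 51 genes, of which 29 were counted and 16 tested in the knockout comparison. None passed there or in any other comparison. The 2 with an unadjusted p under 0.05 in the knockout were the copies Tmem181b-ps and Tmem181c-ps, and the list's median log2 fold change was 0.12, beside 11.2% and 0.0052 for all genes. In Y308F, 4 of 16 had an unadjusted p under 0.05, where 706 (4.4%) of all genes did, and the median was -0.25, beside -0.03 for all genes. The nearest gene beyond the 5′ end of Gm64463, Ppp1r2-ps5, was not in the counts table.

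**Figure D4:**
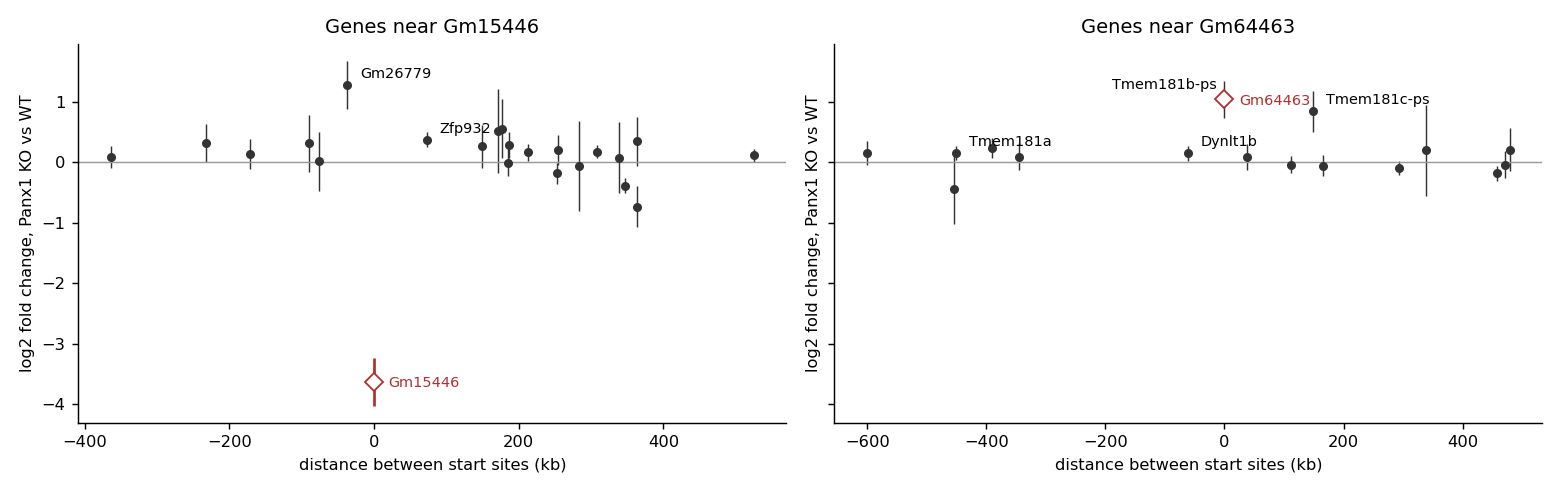
Log2 fold change between Panx1 KO and WT for the tested genes within 500 kb of Gm15446 (left) and Gm64463 (right), against the distance between start sites along the chromosome in kb; bars are ± 1 SE, and open diamonds are Gm15446 (-3.63) and Gm64463 (1.04). Of the neighbours, Gm26779 (1.27), Tmem181b-ps (1.04) and Tmem181c-ps (0.84) lie farthest above 0 among those named.

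Dynlt1b, a light chain of the dynein motor, lies 2.23 kb beyond the 3′ end of Gm64463. Among 18715 genes its log2 CPM was most like that of Gm64463, with a Pearson r of 0.79 over 26 libraries. Over the 20 libraries of the mutant lines r was 0.82, and Dynlt1b again ranked first. The relation held at r = 0.75 in the 9 libraries of the series and 0.84 in the other 11, and at 0.81 without the 2 libraries with the most extreme Gm64463. These libraries share groups and depth, so r is a description. Dynlt1b was not among the 8 genes that matched the main transcript of Gm64463. The other transcripts of Gm64463 were not searched, and shared reads were not tested.

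Dynlt1b measured 19.2, 20.2 and 19.2 CPM in Y308F and 30.5, 28.3 and 29.4 CPM in the matching controls. The log2 fold change was -0.58 (adjusted p = 0.940 in edgeR), next to the -0.57 of Gm64463. In Y198F against the S205A controls of the series its log2 fold change was 0.64, and that of Gm64463 0.47. In the knockout, where the level of Gm64463 chose the gene, Dynlt1b measured 35.8, 40.3 and 47.2 CPM, overlapping the 37.3, 34.9 and 41.0 CPM of WT.

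**Figure D5:**
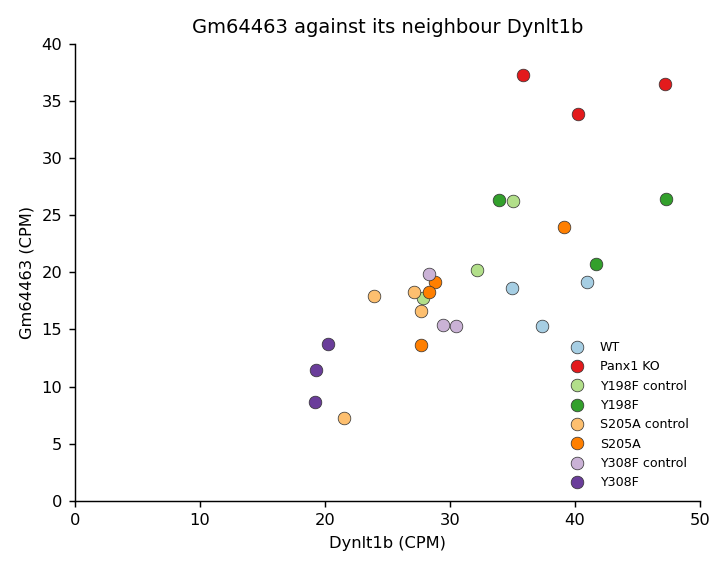
CPM of Gm64463 against CPM of Dynlt1b in the 26 libraries, coloured by group. Outside WT and the knockout the 20 libraries line up (r = 0.82 on log2 CPM) from Y308F at the lower left to Y198F at the upper right; the 3 knockout libraries lie at 33.9 to 37.3 CPM of Gm64463, a height that the choice of Gm64463 fixes.

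After Dynlt1b, the genes most like Gm64463 over 26 libraries were ENSMUSG00000095041 (r = 0.77; 0.62 over the 20) and the X-linked noncoding RNA Firre (0.74; 0.66). These 26 libraries include those that chose both members: over the 20 others ENSMUSG00000095041 ranked 73 and Firre 25, and Setd4 (r = 0.77) came after Dynlt1b. The least like was the noncoding gene Gm45025 (-0.62; -0.74). ENSMUSG00000095041 was most like Mir17hg, the host transcript of a microRNA cluster (0.80; 0.70 over the 20), ENSMUSG00000121500 (0.79; 0.63) and Gprasp2, a protein that sorts receptors (0.79; 0.68). Over the 20 libraries outside the choice they ranked 96, 271 and 123, and the closest were the noncoding genes 4933439C10Rik (r = 0.88) and 0610009L18Rik (0.86). The deposited table names ENSMUSG00000121500 Pisd-ps1, a pseudogene of an enzyme of phospholipid synthesis, and the annotation calls it Gm74511. It was among the 73 genes with knockout libraries outside the range of all others, at 9.12 CPM against a mean of 5.50 CPM. Least like ENSMUSG00000095041 was Paics, an enzyme of purine synthesis (-0.74; -0.80 over the 20).

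For Gm15446 likeness over 26 libraries rested on the 6 knockout and WT libraries. Its 3 closest genes were Tmem254 (r = 0.76), 1010001B22Rik (0.71) and Plac9 (0.68), and over the 20 other libraries these fell to -0.27, 0.11 and -0.24. There the closest were Flrt3 (0.87) and Zkscan14 (0.84). Its least like gene was ENSMUSG00000095041 (-0.72, and 0.19 over the 20). Within the 20, r of this pair was 0.52 in the 9 libraries of the series and 0.64 in the other 11. Among themselves, Gm15446 and Gm64463 had r = -0.60 over 26 libraries and 0.01 over the 20, with 0.32 in the 9 and 0.38 in the 11. Gm64463 and ENSMUSG00000095041 kept r = 0.62 over the 20, made up of 0.14 in the 9 libraries of the series and 0.72 in the other 11, and 0.50 without the 2 farthest libraries.

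Zinc finger genes were read as a list. Of 445 counted genes whose symbols begin with Zfp and a number, 375 were tested in the knockout and none passed, with 46 at an unadjusted p under 0.05 and a median log2 fold change of 0.15, beside 11.2% and 0.0052 for all genes tested. None passed in the S205A, Y308F, series-matched Y198F or control-colony comparisons. Between Y198F and its labelled controls 8 of 372 were higher and 35 lower, a median of -0.23, where 1532 of all 16050 genes were higher and 879 lower (15.0%). Between the series in the S205A line 4 of 387 were higher and 4 lower, a median of -0.24, where 4.41% of all genes passed. The 3 with the smallest adjusted p there were Zfp609 (-0.61), Zfp598 (0.57) and Zfp982 (-0.99).

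Identifiers without a place in the annotation number 700, ENSMUSG00000095041 among them. Of the other 699, 50 were tested in the knockout comparison and none passed, with 7 at an unadjusted p under 0.05 and a median log2 fold change of 0.14, again beside 11.2% and 0.0052 for all genes. Between Y198F and its labelled controls 1 of 45 was higher and 1 lower, where 15.0% of all genes passed. None passed in the S205A, Y308F, series-matched Y198F or control-colony comparisons, with 43 to 49 tested in each. ENSMUSG00000118642 was the 1 of 97 that passed between the series within the S205A line (1.22, adjusted p = 0.0199 in edgeR), where 4.41% of all genes did.

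Genes known to differ between C57BL/6 substrains were read as levels only. Nnt, a gene for a mitochondrial enzyme that is partly deleted in C57BL/6J, measured 0.18 to 1.66 CPM over the 26 libraries. Ide ran from 43.9 to 89.9 CPM, Wdfy1 from 70.6 to 188 CPM and Entpd4 from 17.4 to 65.3 CPM. Fgfbp3 ran from 1.44 to 7.27 CPM. Of the genes named here, Ide was the exception to the knockout libraries lying within the range of the other 23: its lowest value, 43.9 CPM, was in a knockout library, and its lowest elsewhere was 44.6 CPM.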

How the data were processed

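RNA from whole mesenteric arteries was sequenced in 26 libraries as paired reads of 150 bases. The authors mapped reads to GRCm39 with STAR 2.7.9a and counted them with featureCounts of Rsubread 2.20.0, per the design text in the labels; the annotation release, the strand setting and the treatment of reads with several matches are not given in the sources used here. The deposited table holds raw counts for 57010 genes. The authors' deposited normalized counts, a signal, equal these counts divided by 1 factor per library (0.817 to 1.27) for the 21031 genes with more than 50 counts in all. The authors' deposited comparisons hold log2 fold changes and adjusted p-values from DESeq2 1.46.0. Columns were joined to samples by library name, and 0 columns were left unused.

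Main tests used edgeR 4.0.16 (TMM, filterByExpr, robust quasi-likelihood, Benjamini-Hochberg over all genes tested, threshold 0.05) on the libraries of the 2 groups compared. CPM are counts scaled to 1000000 of the TMM effective size over 26 libraries, with a prior count of 2 on the log2 scale. Single genes were also tested by exact two-sided permutation of log2 CPM (scipy 1.17.1). Nothing in the labels says that replicates came from separate litters, so p-values measure the spread between these samples. The 30 pairs of replicates differed by 15.0 to 159 in chi-square per degree of freedom over genes, more than counting noise, so none was 1 library deposited again; a second preparation from the same animal would not be seen this way. Intervals on counts cover counting error only.

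Positions, names and transcripts came from GENCODE vM39 on GRCm39, in which 56310 identifiers were found and 700 were not. Copies were found with blastn 2.17.0. Alternatives were DESeq2 1.42.0, other size factors, no filter, each library left out, all 8 groups in 1 fit, the library series as a term and the replicate number as a block. The edgeR test was tried on simulated counts with 200 changed genes for S205A, Y308F and Y198F against the S205A controls of its series, and not for the other comparisons.

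The 3 genes and all lists were chosen with earlier results of these data known. Named genes were the 3 members; Panx1; per member the 3 most and 1 least like by Pearson r of log2 CPM over 26 libraries; the nearest genes on each side and up to 5 neighbours past the threshold; up to 3 past it of each other list; Plac9 and Tmem254. Near copies found by sequence, and the genes most like each member over the 20 libraries outside the choice, were added after values were seen. Part of the list of substrain genes is not reported here.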

Additional observations from a re-analysis of the deposited data

Results flagged for a closer look

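Gm64463 in S205A control 4 stood far from its group. It measured 7.22 CPM, from 134 counts, while the other 3 S205A controls measured 16.6, 17.9 and 18.3 CPM. It was the 1 outlying library among 6 sets of 4 tested, and chance marks about 1 in 20 such sets. The library held 19004260 counts and is the only S205A control outside the series of 9 libraries. In the same library ENSMUSG00000095041 (125 CPM) and Dynlt1b (21.5 CPM) were the lowest of the 4 controls, and Gm15446 (15.5 CPM) was the highest. Their part in the low value was not tested. None of the 9 differences between mutant effects passed the threshold.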

How the results depend on the processing

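The 3 genes outside the knockout were refitted in 213 alternatives, and 0 passed the threshold. The sign turned in 20 of them, mostly for small values. A series term added to the joint fit of the 8 groups turned the Y198F values: Y198F against its labelled controls gave 0.35 for Gm15446, -0.34 for Gm64463 and -0.23 for ENSMUSG00000095041. With that term 0 genes passed, beside 922 in the joint fit without it and 2411 in the fit of the compared groups alone. The term is estimated from the S205A line alone, where only S205A control 4 and S205A 1 lie outside the series. Genotype and series thus still cannot be told apart in Y198F. Without a filter ENSMUSG00000095041 gave 0.012 in Y198F against the S205A controls of its series. Leaving out single libraries gave -0.27 to 0.033 for Gm15446 and -0.088 to 0.21 for ENSMUSG00000095041 in Y198F, -0.10 to 0.21 and -0.25 to 0.077 in S205A, and -0.28 to 0.040 and -0.26 to 0.18 in Y308F. It gave -0.18 to 0.18 for ENSMUSG00000095041 in Y198F against the S205A controls, -0.12 to 0.23 for Gm15446 between control colonies, and -0.043 to 1.28 for Gm64463 between series in the S205A line. In the last, leaving out S205A control 4, which leaves 1 library outside the series, turned the sign.

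Counts of genes depended on the tool. DESeq2 called 153 in the knockout, 38 in S205A, 34 in Y198F against the S205A controls, 15 between control colonies and 1723 between series. Without a filter the counts were 243 in the knockout, 7 in Y308F, 9 in Y198F against the S205A controls and 35 between colonies. Leaving out single libraries gave 1 to 5 in the knockout, 908 to 2128 in Y198F, 0 to 1 in S205A, 0 to 1 in Y308F, 0 to 12 between colonies and 82 to 1133 between series. The lowest counts came without Y198F control 3 (908), and without S205A control 4 (82), S205A 1 (113), S205A control 3 (408) and S205A 4 (495). The knockout gave 1 gene without WT 1 or any knockout library and 3 without WT 2. Fewer samples entered these fits, and the cause was otherwise not tested.

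Replicate numbers did not pair the samples: in no comparison did each same-numbered pair deviate together with r above 0.1. With the replicate block the knockout gave 18 genes in place of 5. All 48 mean levels under other scalings moved by less than 1 SD. Depth limits Gm15446 in the knockout, where it rested on 10 to 20 counts.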

Other observations

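Genes of the dynein light chain family lie on both sides of Gm64463, and those described here were picked after their values were seen. In Y308F against its controls the log2 fold changes were -0.71 for Dynlt1a (SE 0.201), -0.58 for Dynlt1b (SE 0.116), -0.39 for Dynlt1c (SE 0.128) and -0.39 for Dynlt1f (SE 0.135). Each had an adjusted p of 0.940 in edgeR. In the knockout the same genes gave 0.24, 0.14, -0.04 and -0.06, where Gm64463 gave 1.04. In S205A they gave 0.47, 0.31, 0.08 and 0.14, each with an adjusted p of 1 in edgeR. Whether reads were divided between these close relatives in the counting was not tested.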
